A study of Arabidopsis thaliana with 12 samples.

Results

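WRKY and NAC proteins are 2 families of plant transcription factors, and 7 of their genes could be read by name on the Affymetrix ATH1 arrays of this series. They are the genes that a probe set names alone under a symbol of the form WRKY or NAC with a number: WRKY6, WRKY20, WRKY22, WRKY42, WRKY47, WRKY53 and NAC014. The array annotation names 13356 genes alone in all, while a gene table lists 172 loci under a WRKY or NAC name, and the other loci are not analysed here. Each of the 7 has 1 probe set, so no choice between probe sets was needed.

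A WRKY protein binds W-boxes in promoters through a domain named after its first residues, and most family members are known from defence, senescence, nutrient supply and wounding. The family is divided into groups by the number and type of these domains. A NAC protein binds DNA through a conserved domain at its N-terminus, and NAC genes are known from organ boundaries, secondary walls, senescence and stress. Some NAC proteins are held at a membrane and are released by cleavage, and members of this kind carry signals from disturbed organelles to the nucleus.

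The 12 arrays measured whole seedlings of Arabidopsis thaliana, all of ecotype Col-0 and 5 days old, in 6 groups of 2 arrays. Wild type (Col-0) and 2 mutants, gun1-1 and abi4-102, were each grown on medium lacking or holding lincomycin, which blocks translation in plastids. GUN1 is a plastid pentatricopeptide repeat protein and ABI4 a nuclear transcription factor, and both have been placed in signalling from the plastid to the nucleus. Seedlings grew at 21 °C under light/dark cycles at a light intensity of 20 µmol m-2 s-1. The medium held 1% sucrose and, in the treated groups, lincomycin at 220 µg/ml by the treatment protocol or 200 µg/ml by the source name. One gun1-1 sample without lincomycin (replicate 2) lists all genotypes in its genotype tag, and its title was followed. The labels name no separate cultures for the 2 samples of a group. Each p-value thus reflects how far these samples lie apart, which may be technical. The 2 mutated genes are not named by a probe set (0 of 2) and give no check of the labels.

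Values are log2 expression values, which can be compared between arrays for a gene but not between genes. Array medians lay between 5.44 and 5.52, and the 2 arrays of a group correlated across probe sets at r = 0.990 to 0.996, over genes that are not independent. Of the leaf cell markers 6 of 7 could be read, and without lincomycin their summed level was 14.2 to 14.5 on the log2 scale over the 6 arrays. With lincomycin it was 13.1 in both Col-0 arrays, 13.3 in both abi4-102 arrays and 14.2 in both gun1-1 arrays. Of the 6 markers 5 passed as lower with lincomycin in Col-0, 6 in abi4-102 and 3 in gun1-1. Of all probe sets 17.4%, 13.2% and 10.7% passed either way. LHCB4.3 did not follow the sum, with -0.64 in gun1-1 (limma adjusted p = 0.00884) and -0.36 in Col-0 (limma adjusted p = 0.0665). These responses were not shown to differ (limma adjusted p = 0.481). The 3 root markers read summed to between 12.04 and 12.83 in every group, and one of them, EXPA18, an expansin gene, rose 2.26-fold with lincomycin in gun1-1 (SE 0.31 on the log2 scale, limma adjusted p = 0.0350). Its values there were 5.08 and 4.78 without and 6.65 and 5.57 with lincomycin. EXPA7 and PYK10 did not pass in gun1-1 (0.30 and -0.33, limma adjusted p = 0.574 and 0.135). PYK10 ran from 12.02 to 12.81 and EXPA7 and EXPA18 from 4.43 to 6.65, so the sum mostly follows PYK10. The part of these markers in the results was not tested. In whole seedlings fewer cells of a type and less RNA per cell cannot be told apart.

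NAC014 (AT1G33060), a NAC gene counted among those with a membrane anchor, was the only one of the 7 that passed the test in any of the 10 comparisons made. Its values without lincomycin were 6.03 and 5.98 in Col-0, 6.05 and 6.10 in gun1-1, and 6.03 and 6.04 in abi4-102. With lincomycin they were 6.51 and 6.35 in Col-0, 6.54 and 6.31 in gun1-1, and 6.43 and 6.57 in abi4-102. All 6 arrays with lincomycin were above all 6 without. NAC014 rose 1.34-fold in Col-0 (log2 difference 0.42, SE 0.12, n = 2 a group, limma adjusted p = 0.0277) and 1.38-fold in abi4-102 (0.47, SE 0.12, limma adjusted p = 0.0239). In gun1-1 the difference was 0.35 (SE 0.12, 1.27-fold) and did not pass (limma adjusted p = 0.0807).

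The response of NAC014 in gun1-1 differed from that in Col-0 by -0.07 (95% interval -0.44 to 0.29, limma adjusted p = 0.887), and that in abi4-102 by 0.04 (-0.32 to 0.40, limma adjusted p = 0.966). A pass in 2 genotypes and none in gun1-1 is therefore no shown difference between them. The calls were fragile: without 1 of 3 Col-0 arrays (either array without lincomycin, or replicate 1 with it) the adjusted p in Col-0 was 0.0995 to 0.163, and without 1 of 3 abi4-102 arrays (either array without lincomycin, or replicate 2 with it) it was 0.109 to 0.116 there.

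**Figure D1:**
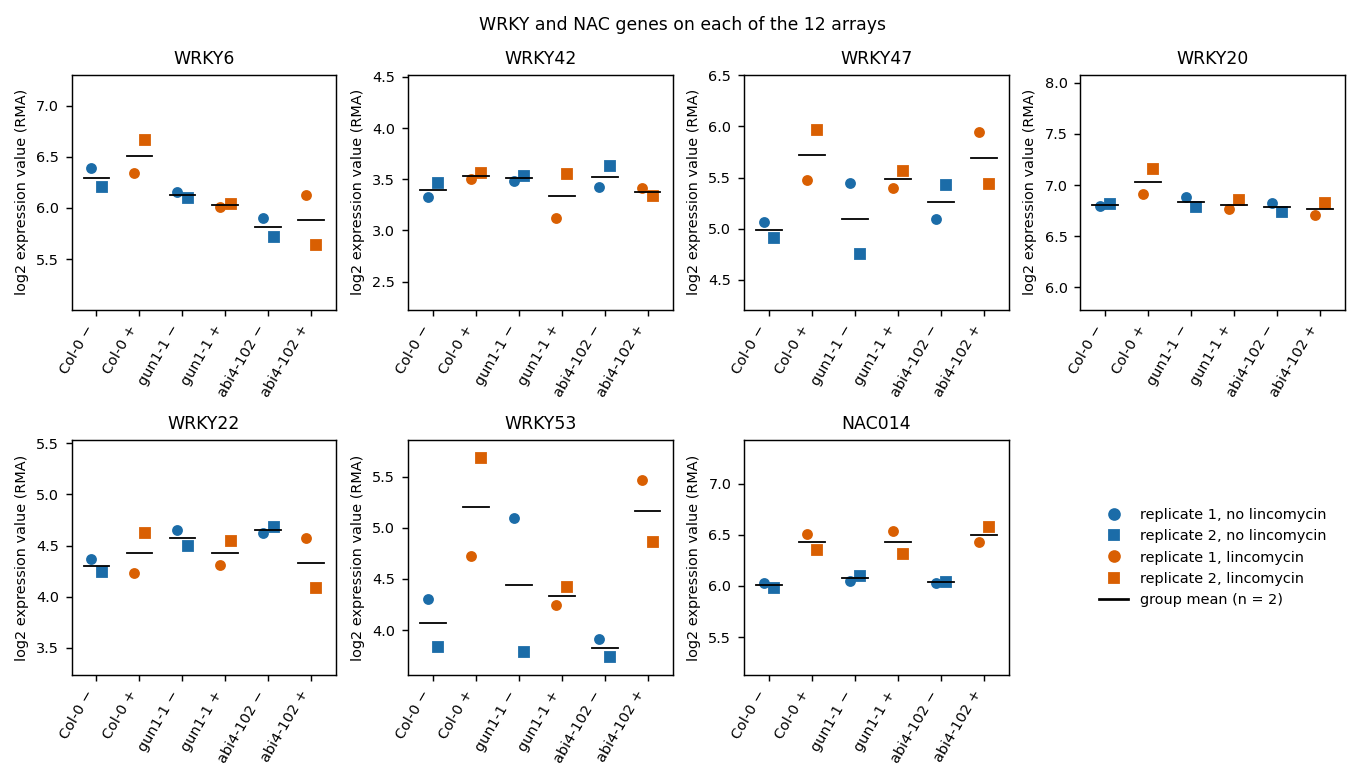
Log2 expression values (vertical axis, each panel spanning the same number of log2 units) of the 7 genes on the 12 arrays, by group (horizontal axis, − without and + with lincomycin); circles and squares are replicates 1 and 2 and the line is the group mean. NAC014 lies between 5.98 and 6.10 without lincomycin and between 6.31 and 6.57 with it, while WRKY53 differs between the arrays of a group.

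WRKY53 (AT4G23810), a WRKY gene of leaf senescence and of responses to salicylic acid and hydrogen peroxide, had the largest lincomycin differences of the 7 in Col-0 and abi4-102, and they did not pass. Its values were 4.3 and 3.83 in Col-0 without lincomycin and 4.73 and 5.69 with it. In abi4-102 they were 3.91 and 3.73 without and 5.47 and 4.86 with lincomycin. In gun1-1 they were 5.10 and 3.79 without and 4.25 and 4.43 with lincomycin. The arrays with and without lincomycin did not overlap in Col-0 and abi4-102 and overlapped in gun1-1.

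The lincomycin difference of WRKY53 was 1.14 in Col-0 (SE 0.40, 2.20-fold, limma adjusted p = 0.0785), 1.35 in abi4-102 (SE 0.40, 2.54-fold, limma adjusted p = 0.0504) and -0.11 in gun1-1 (SE 0.40, limma adjusted p = 0.904). The response in gun1-1 was lower than in Col-0 by a log2 difference of -1.25 (95% interval -2.50 to 0.01, unadjusted p = 0.0509, limma adjusted p = 0.307), which did not pass. The Col-0 difference passed without Col-0 with lincomycin replicate 1, where it was 1.62, and without either gun1-1 array lacking lincomycin. The abi4-102 difference passed without any 1 of those 2 gun1-1 arrays or of the 2 Col-0 arrays with lincomycin. Leaving out an array of another genotype does not change the difference itself. In each of these fits a wide WRKY53 gap leaves the pooled spread. A smaller p then follows by construction, so these passes are not read as a result.

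The difference between the gun1-1 and Col-0 responses moved either way when 1 array was left out, which leaves 1 array in its group. Without gun1-1 without lincomycin replicate 1, the difference of the responses was -0.59 and the response in gun1-1 itself 0.55. Without gun1-1 without lincomycin replicate 2, the difference of the responses was -1.90. It was -0.77 without Col-0 with lincomycin replicate 2.

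**Figure D2:**
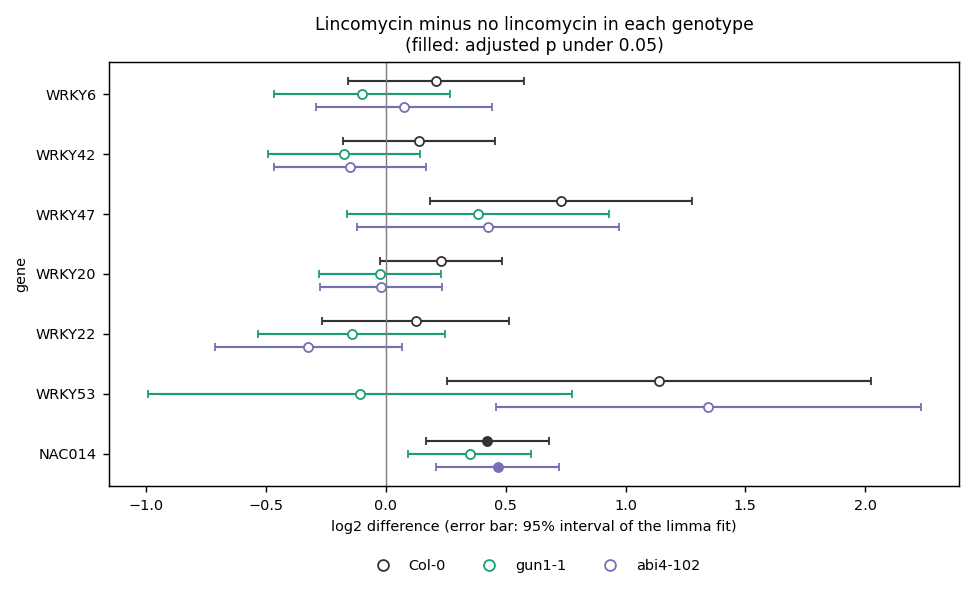
Log2 difference of the arrays with lincomycin minus those without (horizontal axis) for each gene and genotype; error bars are 95% intervals of the limma fit and filled points have an adjusted p under 0.05. Only NAC014 in Col-0 (0.42) and abi4-102 (0.47) is filled, and the intervals of WRKY53 are the widest.

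In several groups most WRKY genes differed between the 2 arrays in a shared direction. Between the gun1-1 arrays without lincomycin 5 of 6 WRKY genes were higher in replicate 1, against 55.1% of all probe sets, with WRKY53 apart by 1.31 and WRKY47 by 0.69. Between the Col-0 arrays with lincomycin all 6 were higher in replicate 2, against 49.4% of all probe sets, with WRKY53 apart by 0.96 and WRKY47 by 0.49. Between the abi4-102 arrays with lincomycin 5 of 6 were higher in replicate 1, against 42.4%, with WRKY53 apart by 0.61, WRKY47 by 0.50 and WRKY6 and WRKY22 by 0.48 each. The gap of WRKY53 was larger than that of 99.5%, 98.8% and 95.9% of all probe sets in these 3 pairs. All 6 were also higher in replicate 2 of gun1-1 with lincomycin, against 54.9% of all probe sets, but WRKY53 was apart by only 0.18 there. Some of these gaps were small, as for WRKY6 there (0.03) and WRKY42 in Col-0 with lincomycin (0.06). Without lincomycin, 4 of 6 in Col-0 and 3 of 6 in abi4-102 were higher in replicate 1, against 50.1% and 49% of all probe sets. NAC014 differed by at most 0.16 in the 3 pairs with the large gaps of WRKY53, in the direction opposite to WRKY53 each time.

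Other genes split the same arrays as WRKY53. Over all probe sets, replicate differences correlated at -0.28 between gun1-1 without and Col-0 with lincomycin. The correlation was 0.17 between gun1-1 without and abi4-102 with lincomycin, and -0.02 between Col-0 and abi4-102 with it. Of 23 probe sets that differed by at least 1 on the log2 scale within each of these 3 pairs, 22 were high on the arrays on which WRKY53 was high, and 16 of the 22 name 1 gene. They include AT3G13610, known as F6'H1, whose enzyme makes the precursor of the coumarin scopoletin. Replicate 1 minus replicate 2 was 2.79 for it in gun1-1 without lincomycin, -1.62 in Col-0 with it and 2.36 in abi4-102 with it. The peroxidase gene AT5G64120, known as PRX71, had differences of 4.16, -1.79 and 1.05 in the same order. AT1G26380, whose smallest gap over the 3 pairs exceeded that of the other named genes, had 2.47, -2.76 and 3.26. These genes were chosen by their values, so no test of them is given. With the 3 arrays on which WRKY53 was far above its replicate left out together, the lincomycin difference of WRKY53 was 0.66 in Col-0, 0.55 in gun1-1 and 1.04 in abi4-102, and the gun1-1 response differed from the Col-0 response by -0.11. These values are a description with no test, since leaving out arrays picked for their WRKY53 values makes its spread and this difference smaller by construction. The part of the 3 arrays in the result of WRKY53 was not tested.

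**Figure D3:**
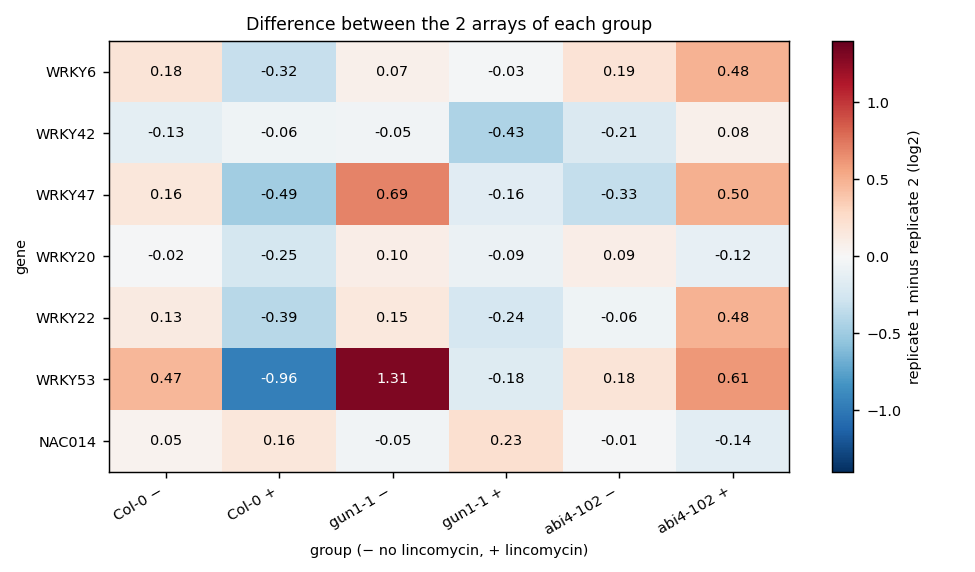
Log2 value of replicate 1 minus replicate 2 (colour and printed number) for each gene (rows) in each group (columns, − without and + with lincomycin). WRKY53 reaches 1.31 in gun1-1 without and -0.96 in Col-0 with lincomycin, and WRKY47 has 0.69 and -0.49 there.

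WRKY6, WRKY42 and WRKY47 belong to one group of the family, IIb. WRKY6 (AT1G62300) and WRKY42 (AT4G04450) are known as repressors of the phosphate exporter gene PHO1, and WRKY6 also from senescence and defence. WRKY47 (AT4G01720) was measured at 5.07 and 4.91 in Col-0 without lincomycin and at 5.48 and 5.96 with it, and these arrays did not overlap. The difference of 0.73 (SE 0.25, 1.66-fold) did not pass (limma adjusted p = 0.0676). In gun1-1 it was measured at 5.44 and 4.75 without and 5.40 and 5.56 with lincomycin, which overlap (0.38, SE 0.25), and in abi4-102 at 5.10 and 5.43 without and 5.94 and 5.44 with it, which do not overlap (0.43, SE 0.25). Neither passed (limma adjusted p = 0.359 and 0.310).

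WRKY6 was lower in both mutants than in Col-0 on every array, but no comparison passed. In Col-0 it was measured at 6.39 and 6.20 without and 6.34 and 6.67 with lincomycin, in gun1-1 at 6.16 and 6.09 without and 6.01 and 6.04 with it, and in abi4-102 at 5.90 and 5.72 without and 6.13 and 5.64 with it. The highest mutant value, 6.16, was below the lowest Col-0 value, 6.20. With lincomycin the difference from Col-0 was -0.48 in gun1-1 (SE 0.17, unadjusted p = 0.0156, limma adjusted p = 0.107) and -0.62 in abi4-102 (SE 0.17, unadjusted p = 0.00350, limma adjusted p = 0.190). Without lincomycin it was -0.48 in abi4-102 (SE 0.17, unadjusted p = 0.0147, limma adjusted p = 0.196) and -0.17 in gun1-1 (SE 0.17, limma adjusted p = 0.946). The lincomycin differences of WRKY6 were 0.21, -0.10 and 0.07 in Col-0, gun1-1 and abi4-102 (SE 0.17 each).

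WRKY42 ran from 3.12 to 3.63 over the 12 arrays, with a mean of 3.45 at percentile 19.0 of all probe sets. Whether its transcript was detected at this low level was not tested. Its 6 group means lay within 0.20 of each other, and its lincomycin differences were 0.14, -0.17 and -0.15 (SE 0.14 each; limma adjusted p = 0.617, 0.489 and 0.561). The 95% intervals of these differences ran from -0.49 to 0.45 over the genotypes.

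**Figure D4:**
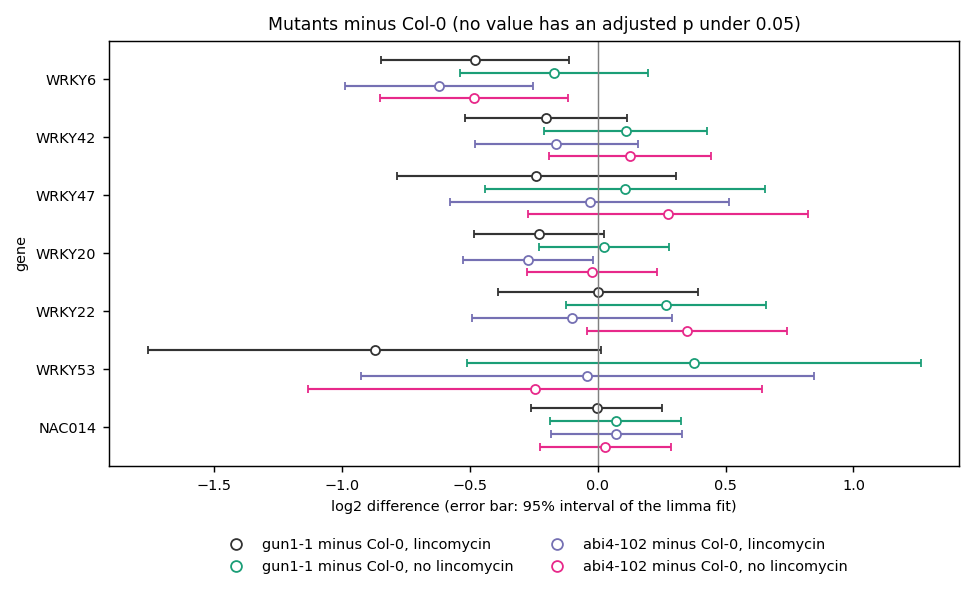
Log2 difference of a mutant minus Col-0 (horizontal axis) for each gene, with and without lincomycin for both mutants; error bars are 95% intervals of the limma fit, and no value has an adjusted p under 0.05. WRKY6 lies between -0.62 and -0.48 in both mutants with lincomycin and in abi4-102 without it and at -0.17 in gun1-1 without it, and WRKY53 at -0.87 in gun1-1 with lincomycin.

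WRKY20 (AT4G26640), a gene of group I, whose proteins carry a pair of WRKY domains, was the steadiest of the 7 apart from 1 array. Its values ran from 6.70 to 6.91 on 11 arrays and reached 7.16 in Col-0 with lincomycin replicate 2. Its lincomycin difference was 0.23 in Col-0 (SE 0.11, limma adjusted p = 0.223), -0.02 in gun1-1 and -0.02 in abi4-102 (limma adjusted p = 0.925 and 0.936). ZAP1 (WRKY1), another gene of group I, stands under another symbol in the annotation and is no member. It did not pass either, with lincomycin differences of -0.07, 0.04 and 0.08 (SE 0.11 each; limma adjusted p = 0.753, 0.847 and 0.697).

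WRKY22 (AT4G01250), which acts below MAP kinases in the response to bacterial flagellin, ran from 4.09 to 4.68. Without lincomycin its group means were 4.3 in Col-0, 4.57 in gun1-1 and 4.65 in abi4-102, and with it 4.43, 4.43 and 4.33. Its lincomycin differences were 0.13, -0.14 and -0.32 (SE 0.18 each; limma adjusted p = 0.730, 0.665 and 0.277). The response in abi4-102 differed from that in Col-0 by -0.45 (SE 0.25, limma adjusted p = 0.620), the largest such difference of the 7 for this mutant, and it did not pass.

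Counted over the 7 genes, lincomycin in Col-0 raised 1, lowered 0 and left 6 that did not pass, where 17.4% of all probe sets passed and 9.40% passed as higher. An unadjusted p under 0.05 was found for 3 of 7 (NAC014, WRKY47 and WRKY53) and for 28.8% of all probe sets. All 7 differences were above 0 (median 0.23), against 53.7% of all probe sets, whose median was 0.02. In 5 of the 7 both arrays with lincomycin were above both without, against 32.7% of all probe sets. The 6 WRKY genes were all higher in replicate 2 of the treated Col-0 arrays, as described above.

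In abi4-102 lincomycin raised 1 of 7 and lowered 0, where 13.2% of all probe sets passed and 7.65% as higher. The median was 0.07, and 2 of 7 (NAC014 and WRKY53) had an unadjusted p under 0.05, against 26.9% of all probe sets. In gun1-1 0 of 7 passed in the limma fit, where 10.7% of all probe sets passed. There 1 of 7, NAC014, had an unadjusted p under 0.05, against 26.3% of all probe sets, and the median was -0.10. Counts of 1 or 0 among 7 genes are near the background in each genotype.

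No member passed in the other 7 comparisons in the limma fit, also when the prior was made robust and followed intensity. Of all probe sets 4.38% passed for the response of gun1-1 against that of Col-0, and 0% for abi4-102 against Col-0 (9 probe sets with that prior). An unadjusted p under 0.05 was found there for 0 of 7 members in either, and for 16.4% and 9.80% of all probe sets. All 7 responses had lower values in gun1-1 than in Col-0 (median -0.31), against 55.4% of all probe sets below 0 and a median of -0.04. These 7 values rest on the same 8 arrays, among them a gun1-1 array and a Col-0 array on which WRKY53 was far above its replicate.

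With lincomycin, 0 of 7 members passed between gun1-1 and Col-0, where 5.98% of all probe sets passed as higher and 4.04% as lower. Of all probe sets 0.457% passed between abi4-102 and Col-0 and 10.9% between gun1-1 and abi4-102. In these 3 comparisons 1, 2 and 0 members had an unadjusted p under 0.05, against 23.2%, 11.0% and 25.1% of all probe sets. They were WRKY6 for gun1-1, and WRKY6 and WRKY20 for abi4-102 (WRKY20 -0.27, SE 0.11, limma adjusted p = 0.409). WRKY53 was next to WRKY6 between gun1-1 and Col-0 (-0.87, SE 0.40, limma adjusted p = 0.225) and had the smallest p between gun1-1 and abi4-102 (-0.83, SE 0.40, limma adjusted p = 0.230).

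Without lincomycin 0.0220% of all probe sets passed between gun1-1 and Col-0 and 1.68% between abi4-102 and Col-0. Here 0 and 1 members (WRKY6) had an unadjusted p under 0.05, against 6.74% and 14.7% of all probe sets. WRKY22 had the smallest p for gun1-1 (0.27, SE 0.18, limma adjusted p = 0.871) and the next smallest for abi4-102 (0.35, SE 0.18, limma adjusted p = 0.412).

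Pathways in which WRKY and NAC proteins act could be read in part. Of 17 salicylic acid and defence markers 2 could be read. SAG101, a lipase-like partner of the immune regulator EDS1, rose 1.76-fold in Col-0 (log2 difference 0.81, SE 0.20, limma adjusted p = 0.0166), and the values in gun1-1 and abi4-102 were 0.62 and 0.37 (limma adjusted p = 0.0731 and 0.266). The defensin gene PDF1.2a did not pass in any genotype. Of 13 senescence genes only SAG29, a sugar transporter gene, could be read. It did not pass on lincomycin in any genotype (-0.55, 0.40 and -0.55 in Col-0, gun1-1 and abi4-102), but was 3.59-fold higher in gun1-1 than in abi4-102 with lincomycin (SE 0.28 on the log2 scale, limma adjusted p = 0.00200). Without lincomycin it differed from Col-0 by -0.92 in abi4-102 (unadjusted p = 0.00726, limma adjusted p = 0.141) and by -0.03 in gun1-1. None of the 10 MAP kinase and VQ genes (0 of 10) or of the 14 secondary wall genes (0 of 14) could be read.

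The mitochondrial dysfunction regulon holds genes known as targets of membrane-held NAC proteins. Whether NAC014 acts on them was not tested. Of 13 genes of this regulon 6 could be read. Of these 2 rose in Col-0, 3 in gun1-1 and 2 in abi4-102, and 0 fell, where 9.40%, 5.79% and 7.65% of all probe sets passed as higher; the medians were 0.15, 0.73 and 0.22. UPOX (AT2G21640) and the transporter gene DTX3 (AT2G04050) rose in each genotype. UPOX rose 3.45-fold, 5.30-fold and 5.83-fold in Col-0, gun1-1 and abi4-102 (SE 0.20 on the log2 scale each), and DTX3 4.28-fold, 4.92-fold and 7.74-fold (SE 0.26 on the log2 scale each). 12Cys-1 rose in gun1-1 alone of the 3 (1.75-fold, SE 0.18, limma adjusted p = 0.0166). Its response there was not shown to differ from that in Col-0 (0.65, limma adjusted p = 0.212). For that difference 0 of the 6 passed, where 4.38% of all probe sets passed. In the direct comparison with lincomycin 3 of the 6 were higher in gun1-1 than in Col-0, where 5.98% of all probe sets passed as higher: UPOX by 1.67-fold (limma adjusted p = 0.0422), 12Cys-1 by 1.74-fold (0.0148) and the heat shock gene HSP23.5 by 1.89-fold (0.0199). In abi4-102 these genes differed from Col-0 with lincomycin by 0.52, 0.61 and 0.58, and 0 of the 6 passed there, where 0.457% of all probe sets passed. Without lincomycin they differed from Col-0 in abi4-102 by -0.24, 0.50 and 0.10. There 0 of the 6 passed as well, where 1.68% of all probe sets passed. Between gun1-1 and abi4-102 with lincomycin 1 of the 6 passed, where 10.9% of all probe sets passed. It was DTX3, lower in gun1-1 by 1.96-fold (limma adjusted p = 0.0370). Of 9 endoplasmic reticulum stress genes 3 could be read. Of these 2 rose in Col-0, 2 in gun1-1 and 1 in abi4-102, where 9.40%, 5.79% and 7.65% of all probe sets passed as higher. BZIP60, a transcription factor gene of the unfolded protein response, rose 1.65-fold, 2.50-fold and 1.61-fold in the same order (SE 0.12 on the log2 scale each). The chaperone gene CRT2 rose 1.30-fold in Col-0 and 1.47-fold in gun1-1, with 0.35 in abi4-102 not passing (limma adjusted p = 0.0530). Both were also higher in gun1-1 than in Col-0 with lincomycin, BZIP60 by 1.39-fold (limma adjusted p = 0.0315) and CRT2 by 1.47-fold (limma adjusted p = 0.00725). Of all probe sets 5.98% passed as higher in that comparison. Without lincomycin CRT2 differed from Col-0 by 0.38 in gun1-1 (unadjusted p = 0.00445, limma adjusted p = 0.478) and BZIP60 by -0.12. For the response of gun1-1 against that of Col-0, 0 of the 3 passed, where 4.38% of all probe sets passed. The values were 0.60 for BZIP60 (limma adjusted p = 0.0884) and 0.18 for CRT2 (limma adjusted p = 0.646). The third gene, DER1, did not pass in any genotype.

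**Figure D5:**
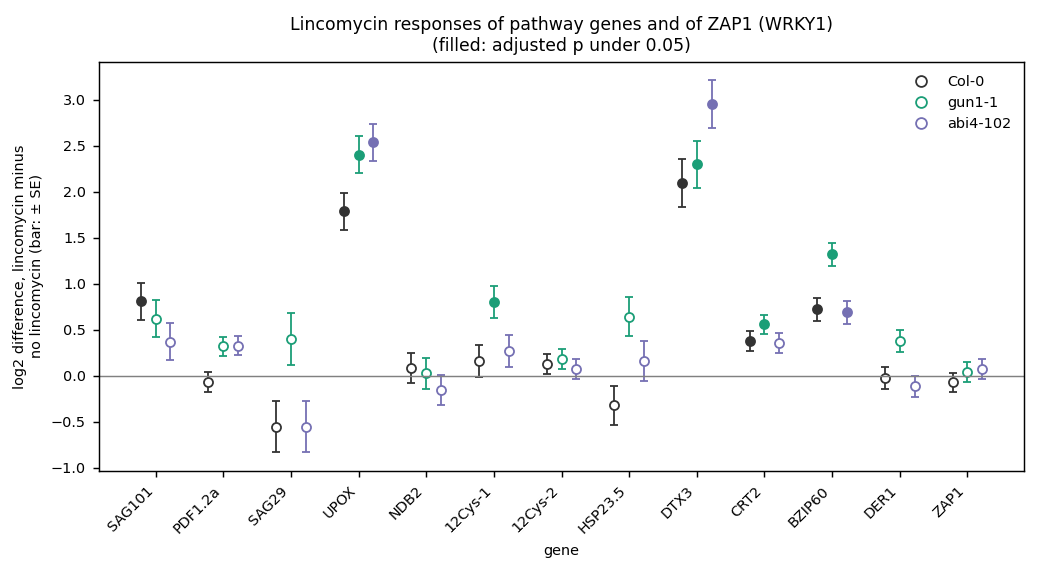
Log2 difference of the arrays with lincomycin minus those without (vertical axis, bars are the SE of the limma fit) for the pathway genes that could be read and for ZAP1, in 3 genotypes; filled points have an adjusted p under 0.05. UPOX, DTX3 and BZIP60 are filled in each genotype, and ZAP1 stays between -0.07 and 0.08.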

How the data were processed

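The values are log2 expression summaries as deposited. RMA is the tool listed per the submitters' processing notes, and no version of it is given in the sources used here. RMA equalises the arrays' distributions, so a change in total mRNA would not be seen. Of 22810 rows 64 controls were left out and 22746 probe sets tested, of which 13513 name 1 gene. A linear model of 6 group means over all 12 arrays was fitted by limma 3.58.1 (lmFit and eBayes, R 4.3.3), leaving 6 residual degrees of freedom, and was checked on simulated data. A gene passed with a two-sided p, adjusted by Benjamini-Hochberg over all probe sets within each of 10 comparisons, under 0.05. The number of arrays limits the precision. The members, lists and tests were chosen with earlier results of these data known. Members named by rule were those called in a comparison, or else the 2 with the smallest p; of a list, called genes (up to 3 each way) or the one with the smallest p. Alternatives were a replicate block, a fit of 1 comparison's own groups, a robust prior that follows intensity, median centring, the upper 60% of probe sets, a log2 change of at least 1, each array left out, and, added after seeing the data, 3 arrays left out together. No member had a second probe set, so choosing the dimmer one gave nothing to compare.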

Additional observations from a re-analysis of the deposited data

How the results depend on the processing

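The count of members called on lincomycin was 1 in Col-0 and 1 in abi4-102 over all arrays, NAC014 in both. It was 2 in Col-0 with the upper 60% of probe sets, where fewer probe sets are tested and WRKY47 passed as well, and 0 in both genotypes with a log2 change of at least 1. By their mean over the arrays WRKY42, WRKY22 and WRKY53 lie outside the upper 60%, at percentiles 19.0, 37.1 and 37.8 of all probe sets. Leaving out 1 array gave 0 to 3 in Col-0, 0 to 2 in abi4-102 and 0 to 0 in the other 8 comparisons. With the 3 arrays of high WRKY53 left out together it was 0 in Col-0 and 1 in abi4-102, there WRKY53, whose spread this choice of arrays shrinks by construction. In a fit of only the groups compared, WRKY47 replaced NAC014 in Col-0 (adjusted p = 0.0412 and 0.0521) and WRKY53 replaced it in abi4-102 (0.0192 and 0.0624). The cause of the other shifts was not tested. Over the 19 alternatives run the difference of NAC014 was 0.34 to 0.50 in Col-0 and 0.39 to 0.54 in abi4-102. Leaving out arrays could not change its sign, since every array with lincomycin lay above every array without. The kept sign is thus no separate support, and the calls were fragile, as described above. With the replicate number as a block the counts were 1 in Col-0, 1 in abi4-102 and 0 elsewhere, as without it. Replicate deviations correlated between groups at -0.28 to 0.28, and whether the numbers pair the samples was not tested. The number of arrays, 2 a group, limits the precision.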
